A study of Saccharomyces cerevisiae with 8 samples.

Results

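Loss of PEX19 from budding yeast that already lack MSP1 was examined by setting the msp1Δpex19Δ double deletion against the msp1Δ single deletion, by RNA-seq and by sequencing of ribosome-protected fragments (RPF). The comparison uses 4 of the 8 libraries of the series, 1 per genotype and assay, and 3737 of the 6668 listed genes, those with a mean of at least 50 reads over the 4 genotypes in both assays. All strains are of the W303 background (Saccharomyces cerevisiae). The double deletion carries no MSP1 and no PEX19, the msp1Δ strain carries PEX19 only, the pex19Δ strain carries MSP1 only, and the wild type carries both. Cultures of every genotype grew for 16 h on 2% glycerol plus 2% ethanol in synthetic complete medium; yeast uses both carbon sources by respiration. Each genotype is represented by 1 sample, from which both of its libraries came, so a value shared by RNA-seq and RPF is shared within 1 culture and has no replicate check.

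Msp1 is an ATPase anchored in the mitochondrial outer membrane, where it pulls out tail-anchored membrane proteins that have been inserted there by mistake. Pex19 binds newly made peroxisomal membrane proteins in the cytosol and hands them to Pex3 on the target membrane. Yeast without Pex19 has no normal peroxisomes, its peroxisomal enzymes stay in the cytosol, and some peroxisomal membrane proteins reach mitochondria. The comparison therefore addressed what loss of peroxisome assembly does to RNA levels and to ribosome occupancy when the Msp1 extraction route is already missing.

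RNA-seq totals were 4936802 reads in the double deletion and 5302691 in msp1Δ, and RPF totals were 1685722 in the double deletion and 1101458 in msp1Δ. The msp1Δ RPF library was the smallest of the 8, so the RPF side of every ratio here is less precise, with a median of 138 reads per gene in the double deletion and 93 in msp1Δ. Levels below are scaled CPM, read counts relative to the TMM-scaled library size of the assay, and ratios are log2 of the double deletion over msp1Δ. With 1 library a side no test was possible and no p-value is given. The 95% intervals are exact binomial intervals for the counting of reads only. With 1 library a side they hold no variation between cultures or libraries. The reads were amplified without molecular identifiers and cannot stand for separate molecules, so the intervals may be too narrow even for counting error.

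PEX19 (YDL065C, chrIV:336249-337277, minus strand) matched its labels. It was listed at 1 RNA-seq read and 1 RPF read in the double deletion, against 365 RNA-seq and 104 RPF reads in msp1Δ. Against a limit of 3 reads, the double deletion was at least 115-fold lower in PEX19 RNA and at least 53.0-fold lower in PEX19 RPF. MSP1 was listed at 1 read in all 4 libraries of the comparison.

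The gene that shares its upstream stretch with PEX19 stood higher. UBC9 (YDL064W, chrIV:337487-338070, plus strand), which encodes the SUMO-conjugating enzyme, is read away from PEX19 and the start codons are 209 bases apart. The whole stretch is shown because both genes are read from it and 1 of them was removed. It is given as the plus strand of R64 at chrIV:337275-337489, read from the RefSeq genome, and the capitals mark the start codon of PEX19 (reversed, at the left end) and that of UBC9 (right end).
PEX19-UBC9: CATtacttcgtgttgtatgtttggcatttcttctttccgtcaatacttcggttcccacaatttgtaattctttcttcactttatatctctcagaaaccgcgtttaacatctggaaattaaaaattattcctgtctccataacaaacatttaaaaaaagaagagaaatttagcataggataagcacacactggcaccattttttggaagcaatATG
UBC9 RNA stood at 105.5 CPM in the double deletion and 37.6 in msp1Δ, with 133 in pex19Δ and 43.0 in wild type. UBC9 RPF stood at 109 in the double deletion and 63.9 in msp1Δ, with 124 in pex19Δ and 67.2 in wild type. Both strains without PEX19 were thus above both strains with it, in each assay. The ratio was 1.48 (1.25 to 1.73) for RNA and 0.76 (0.37 to 1.19) for RPF. On the other side of PEX19, IDP1, the mitochondrial isocitrate dehydrogenase that uses NADP, had ratios of 0.05 and −0.00. COX9, a subunit of cytochrome c oxidase, had 0.03 and 0.22. SYO1, beyond UBC9, was under the read minimum. How much of the stretch the deletion left in place is not given in these sources, and its part in the UBC9 level was not tested.

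Genes lower in the double deletion outnumbered genes higher when both assays were required to pass. At 2-fold, 9 genes were lower (0.241% of the 3737) and 0 were higher (0.0%). At 1.5-fold, 25 were lower (0.669%) and 10 were higher (0.268%). RNA-seq alone had 12 genes at least 2-fold lower (0.321%) and 8 higher (0.214%). RPF alone had 58 lower (1.55%) and 45 higher (1.2%), and its log2 ratios were spread more widely, with a scaled median absolute deviation of 0.44 against 0.20 in RNA-seq. PEX19 itself is 1 of the 9 and of the 25. ZPS1 and HEF3, also among the 9, passed the RPF read minimum only through the msp1Δ library. The genes nearest to the 2-fold limit on the inside were BIO4 and SHC1, and those nearest on the outside were CTT1 and MF(ALPHA)1.

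**Figure D1:**
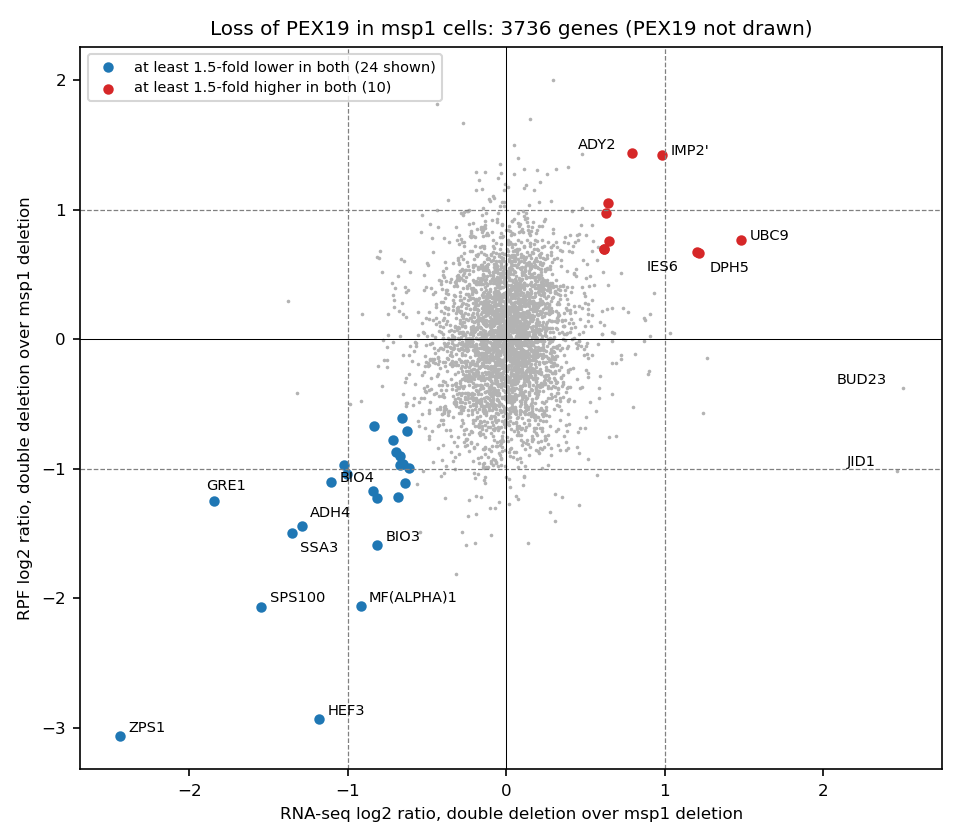
Each point is 1 gene, with its RNA-seq log2 ratio (x axis) and RPF log2 ratio (y axis) of the double deletion over msp1Δ, and dashed lines mark 2-fold. Blue points are the 24 genes other than PEX19 at least 1.5-fold lower in both assays and red points the 10 at least 1.5-fold higher; ZPS1 and HEF3 lie farthest down, while BUD23 and JID1 are high in RNA-seq only.

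Genes that answer to zinc supply were lower in the double deletion, with ZPS1 and ADH4 past 2-fold in both assays. ZPS1 (YOL154W, chrXV:34658-35407), a cell-surface protein gene transcribed when zinc is short, had 20.6 RNA-seq CPM in the double deletion and 113 in msp1Δ, with 8.03 in pex19Δ and 30.9 in wild type. Its RPF level was 21.8 in the double deletion and 186 in msp1Δ, with 1.31 in pex19Δ and 21.3 in wild type. In both assays msp1Δ was highest and pex19Δ lowest, with the double deletion between them and, in RPF, next to wild type. ZPS1 ratios were −2.44 (−2.77 to −2.15) for RNA and −3.06 (−3.64 to −2.59) for RPF.

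ADH4 (YGL256W, chrVII:15159-16307), an alcohol dehydrogenase of the iron-type family whose gene is transcribed at low zinc, was likewise highest in msp1Δ and lowest in pex19Δ. It stood at 723.5 RNA-seq CPM in the double deletion and 1769 in msp1Δ, with 79.2 in pex19Δ and 873 in wild type. RPF levels of ADH4 were 1626 in the double deletion and 4411 in msp1Δ, with 51.6 in pex19Δ and 2156 in wild type, and its ratios were −1.29 (−1.35 to −1.23) and −1.44 (−1.51 to −1.37).

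Of 17 listed targets of Zap1, the activator of the zinc response, 14 were measured. In RNA-seq 12 were lower, where 50.6% of all genes were below 0, and in RPF the same 12, where 49.9% were. The share of all genes below or above 0 in both assays at once is not given here, so list counts in both assays have no share beside them. The list medians were −0.22 in RNA-seq and −0.50 in RPF. ZAP1 itself had ratios of −0.48 and −0.38. The plasma membrane zinc importers ZRT1 and ZRT2 had −0.49 and −0.75, and −0.39 and −0.57. ZRT3, which releases zinc from the vacuole, had −0.39 and −1.23, and ZRC1, which loads zinc into it, −0.14 and −1.06. The members that stood higher in both were ZRG8 at 0.24 and 0.53 and CKI1, choline kinase, at 0.01 and 0.08. The zinc-responsive element, the palindrome that Zap1 binds, was searched on both strands in the 500 bases before each start codon. It occurred in 0.15% of the 5992 genes with a full window and in 2 of the 17 listed targets, ZRT1 and ZRG17. It occurred in 0 of the 24 lower genes at the 1.5-fold limit (PEX19 left out), ZPS1 and ADH4 among them. A search that matched only 2 of the 17 targets cannot show that the genes without a match lack a Zap1 site.

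The genes of biotin synthesis and uptake were lower as a group, and all 4 measured members were lower in both assays. BIO4, dethiobiotin synthetase, had 41.0 RNA-seq CPM in the double deletion and 88.4 in msp1Δ, with 70.1 in pex19Δ and 104 in wild type. BIO4 RPF was 81.9 in the double deletion and 176.5 in msp1Δ, with 144 in pex19Δ and 232 in wild type. The double deletion was lowest of the 4 genotypes in each assay, and the ratios were −1.10 (−1.35 to −0.87) and −1.10 (−1.43 to −0.79). BIO3, the aminotransferase of the step before it, had 80.1 CPM in RNA-seq in the double deletion and 141 in msp1Δ, with 156 in pex19Δ and 154 in wild type. BIO3 RPF was 36.5 in the double deletion and 111 in msp1Δ, with 75.2 in pex19Δ and 101 in wild type. Its ratios were −0.82 and −1.59, and the double deletion was again lowest. BIO2, biotin synthase, had ratios of −0.52 and −1.02, and VHT1, the biotin transporter, −0.51 and −0.69. BIO5, a transporter of a biotin precursor, was under the read minimum with 72 RNA-seq reads in the double deletion and 178 in msp1Δ, and 6 RPF reads in the double deletion and 14 in msp1Δ.

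Vhr1, the activator of VHT1 and BIO5, is known to act through the Vhr1-responsive element, a pair of short boxes with a fixed gap, which was searched on both strands in the same windows with any base allowed at its ambiguous position. It occurred in 0.668% of all genes and in 2 of the 5 biotin genes, VHT1 and BIO5, and in 0 of the same 24 lower genes. Here too the lack of a match cannot show that a gene has no Vhr1 site. Both stretches are shown because they are those of the biotin genes with a match. The sequences are from R64 (RefSeq), at chrVII:620095-620134 and chrXIV:733558-733597, both on the minus strand, and the capitals mark the match. The BIO5 window lies inside the coding sequence of its neighbour BIO4 (chrXIV:733356-734069).
VHT1: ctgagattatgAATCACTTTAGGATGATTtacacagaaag
BIO5: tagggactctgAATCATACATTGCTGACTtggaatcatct

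HEF3, a paralogue of translation elongation factor 3 that is hardly used in rich medium, was lower by more in RPF than in RNA-seq. HEF3 RNA was 76.0 CPM in the double deletion and 173 in msp1Δ, with 45.4 in pex19Δ and 74.8 in wild type. HEF3 RPF was 17.7 in the double deletion and 139 in msp1Δ, with 15.3 in pex19Δ and 16.6 in wild type. Outside msp1Δ the RPF level of HEF3 thus lay between 15.3 and 17.7 CPM. HEF3 ratios were −1.18 (−1.36 to −1.01) for RNA and −2.93 (−3.59 to −2.40) for RPF. The main elongation factor 3 gene YEF3 had −0.03 and −0.20.

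Heat shock and general stress genes were among the other lower genes. Lower past the 1.5-fold limit in both assays were 3 of 26 members of the Hsf1 and chaperone list (SSA3, SSA4 and HSP26). So were 3 of 32 of the Msn2 and Msn4 list (GRE1, CTT1 and HSP26). Among all genes the share was 0.669%. SSA3, a stress-inducible cytosolic Hsp70, stood at 144 RNA-seq CPM in the double deletion and 369 in msp1Δ, with 152 in pex19Δ and 170 in wild type. SSA3 RPF was 102.5 in the double deletion and 291 in msp1Δ, with 96.6 in pex19Δ and 131 in wild type. The ratios were −1.35 (−1.48 to −1.23) and −1.50 (−1.78 to −1.23), and msp1Δ stood alone above the other genotypes. GRE1, a hydrophilin gene of osmotic stress, had 50.6 in the double deletion and 182 in msp1Δ in RNA-seq, with 44.3 in pex19Δ and 82.2 in wild type. GRE1 RPF was 167 in the double deletion and 396 in msp1Δ, with 182 in pex19Δ and 254 in wild type.

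CTT1, the cytosolic catalase, stood just outside 2-fold with ratios of −1.03 (−1.14 to −0.91) and −0.97 (−1.19 to −0.76). Its RNA was 177 in the double deletion and 361 in msp1Δ, with 329 in pex19Δ and 258 in wild type. HSP26, the small heat shock protein that holds unfolding proteins, had 2408 CPM in RNA-seq in the double deletion and 3827 in msp1Δ, with 4499 in pex19Δ and 3006 in wild type. HSP26 RPF was 4503 in the double deletion and 8843 in msp1Δ, with 8154 in pex19Δ and 6492 in wild type. For CTT1 and HSP26 the double deletion was lowest of the 4 in both assays and pex19Δ lay above wild type. For SSA3 and GRE1 pex19Δ lay below wild type, and the double deletion was lowest only in RNA-seq for SSA3 and only in RPF for GRE1. SSA4, the other stress-inducible Hsp70 of its kind, had ratios of −0.84 and −0.67. Over the whole Hsf1 and chaperone list 16 of 26 members were lower in RNA-seq (median −0.14), where 50.6% of all genes were. In RPF 14 were lower (median −0.00), where 49.9% of all genes were. Other members of the list included SSA2, an Hsp70, at 0.11 and 0.39, and the co-chaperone YDJ1 at −0.34 and −0.00.

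Of 32 targets of Msn2 and Msn4, the activators of the general stress response, 27 were lower in RNA-seq (median −0.19), 21 in RPF (−0.10) and 20 in both. Of all genes, 50.6% were lower in RNA-seq and 49.9% in RPF. With TMM factors from all listed genes the RPF median of the 32 targets was 0.03, while the RPF median over every gene was 0.13. Among members not past 1.5-fold in both assays, ALD3, a cytosolic aldehyde dehydrogenase, had −0.54 and −1.48, with a copy, ALD2, at 91.8% identity that makes its own value uncertain. PGM2, phosphoglucomutase, had −0.47 and −0.30. Trehalose and glycogen genes were lower for 15 of 17 by RNA-seq (median −0.16) and for 14 by RPF (median −0.25), with the debranching enzyme GDB1 at −0.03 and −0.77 and the branching enzyme GLC3 at −0.32 and −0.50. Glycolytic genes were lower for 17 of 18 by RNA-seq (median −0.15) and for 16 by RPF (median −0.16), with PDC1, pyruvate decarboxylase, at −0.38 and −0.54. TDH1, a glyceraldehyde-3-phosphate dehydrogenase with a copy, TDH2, at 90.2% identity, had −0.63 and −0.30. None of the 18 passed 1.5-fold in both.

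Msn2 and Msn4 are known to bind the 5-base stress response element, searched as AGGGG on both strands in the same 500-base windows. It occurred at least once before 34.1% of all genes and 36.7% of the genes past the read minimum. Among the 24 lower genes at the 1.5-fold limit, PEX19 left out, 16 held it (66.7%) and 10 held more than 1 copy (41.7%, against 9.32% of the genes past the minimum). Among the 9 higher genes, UBC9 left out, 6 held it (66.7%) and 1 held more than 1 copy (11.1%). The stretches of 3 lower genes are shown to give the spacing of the copies, which are in capitals, CCCCT being the element on the other strand. They come from R64 (RefSeq), for SPS100 at chrVIII:379327-379376 on the minus strand, for NDE2 at chrIV:303050-303085 on the plus strand and for HSP26 at chrII:381543-381716 on the plus strand.
SPS100: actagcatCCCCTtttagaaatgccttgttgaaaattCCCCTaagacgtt
NDE2: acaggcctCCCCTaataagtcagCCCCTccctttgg
HSP26: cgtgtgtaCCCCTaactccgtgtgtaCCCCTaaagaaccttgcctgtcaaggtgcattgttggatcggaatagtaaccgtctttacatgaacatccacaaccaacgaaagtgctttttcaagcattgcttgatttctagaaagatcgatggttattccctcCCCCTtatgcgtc

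SPS100, which acts in spore wall maturation, had 20.8 RNA-seq CPM in the double deletion and 61.1 in msp1Δ, with 24.3 in pex19Δ and 42.5 in wild type. SPS100 RPF was 28.9 in the double deletion and 122.5 in msp1Δ, with 18.4 in pex19Δ and 55.8 in wild type. Both strains without PEX19 were below both strains with it, in each assay, and the ratios were −1.54 and −2.06. SHC1, an activator of chitin synthesis used in sporulation, stood at the 2-fold limit with −1.005 (−1.31 to −0.71) and −1.04 (−1.69 to −0.43). NDE2, a mitochondrial NADH dehydrogenase facing the intermembrane space, had −0.62 and −0.71.

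The remaining lower genes included minor isozymes and a pheromone gene. TKL2 and GND2, minor isozymes of transketolase and 6-phosphogluconate dehydrogenase in the pentose phosphate pathway, had ratios of −0.84 and −1.17, and −0.70 and −0.87. PMA2, the minor plasma membrane proton pump, had −0.81 and −1.23, and HXT5, a hexose transporter made in slow growth, −0.67 and −0.90. MF(ALPHA)1, a precursor of α-factor, had 27.2 RNA-seq CPM in the double deletion and 51.6 in msp1Δ, with 48.6 in pex19Δ and 22.2 in wild type. Its RPF level was 37.7 in the double deletion and 159 in msp1Δ, with 98.3 in pex19Δ and 53.0 in wild type. Each single deletion was thus above the double deletion and wild type for this gene. All 7 measured members of the list of a-specific and pheromone genes were lower by RNA-seq (median −0.33), where 50.6% of all genes were. By RPF 5 were lower (median −0.48), where 49.9% of all genes were. Among the 7, the α-factor receptor STE2 had −0.39 and −0.52 and the protease BAR1 −0.33 and −0.79. MFA1 had −0.46 and −0.06. Higher by RPF were MFA2, at −0.46 and 0.35, and AXL1, at −0.03 and 0.20.

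**Figure D2:**
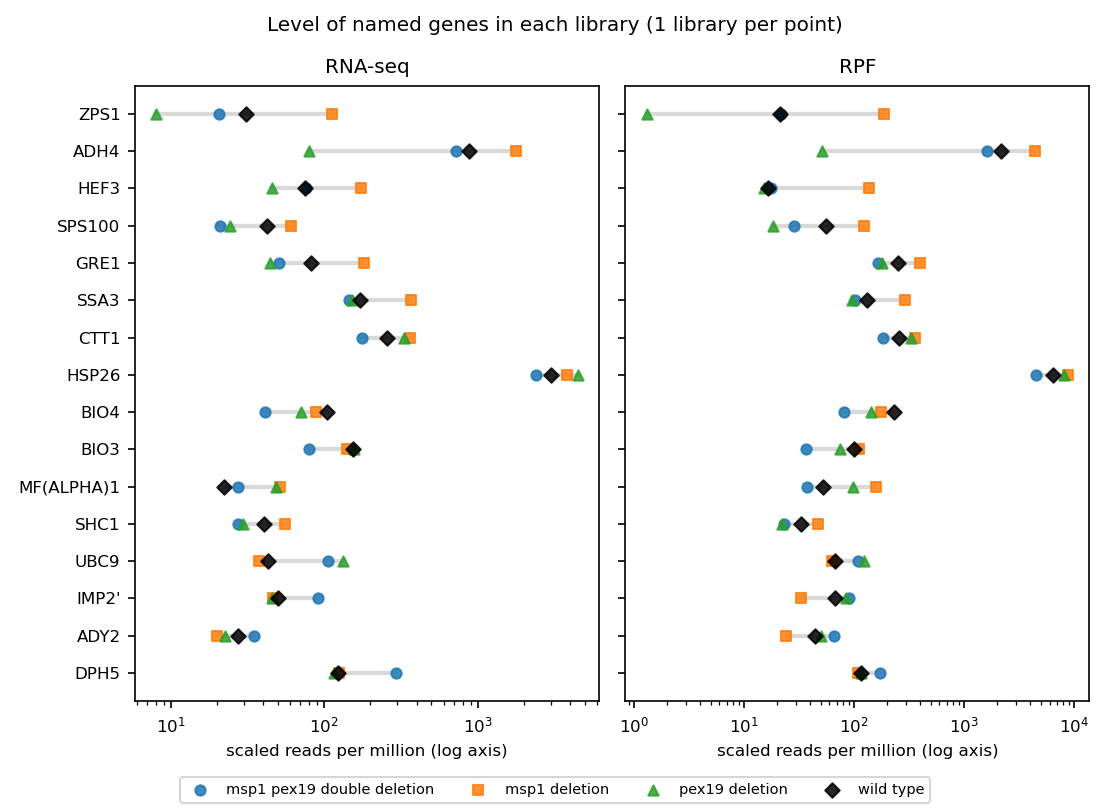
Scaled CPM (log axis) of 16 named genes in the RNA-seq library (left) and the RPF library (right) of each genotype, 1 point per library. The msp1Δ point (orange square) lies to the right for the genes from ZPS1 to SSA3, and HEF3 RPF is high in msp1Δ only; for UBC9 the double deletion and pex19Δ lie together on the right.

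Across the 24 lower genes other than PEX19, the msp1Δ library was the highest of the 4 genotypes for 18 in RNA-seq and 22 in RPF. The double deletion was the lowest of the 4 for 17 in RNA-seq and 14 in RPF. It was below wild type for 22 and 21, while msp1Δ was above wild type for 22 and 23. The members were chosen by their difference between the double deletion and msp1Δ, which favours all of these counts. Only the order of pex19Δ and wild type relative to each other is free of the choice.

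The 10 genes at least 1.5-fold higher in both assays belonged to no single listed pathway. IMP2', an activator in the use of sugars other than glucose, stood at 91.7 RNA-seq CPM in the double deletion and 46.3 in msp1Δ, with 45.6 in pex19Δ and 49.8 in wild type. Its RPF level was 90.2 in the double deletion and 33.3 in msp1Δ, with 85.2 in pex19Δ and 67.7 in wild type. The RNA was high in the double deletion alone, whereas the RPF level was low in msp1Δ alone, and the ratios were 0.98 (0.76 to 1.21) and 1.42 (0.91 to 2.00). ADY2, a plasma membrane acetate transporter, had 35.03 CPM in RNA-seq in the double deletion and 20.1 in msp1Δ, with 22.6 in pex19Δ and 27.4 in wild type. ADY2 RPF was 66.6 in the double deletion and 24.3 in msp1Δ, with 50.3 in pex19Δ and 44.5 in wild type, so msp1Δ was the lowest in both assays.

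DPH5, a methyltransferase of diphthamide synthesis, had 292 RNA-seq CPM in the double deletion and 125 in msp1Δ, with 116.5 in pex19Δ and 122 in wild type. The other 3 genotypes lay within 10 CPM of each other, and the ratios were 1.22 (1.09 to 1.35) and 0.66 (0.35 to 0.98). IES6, a subunit of the INO80 chromatin remodeller, had ratios of 1.20 and 0.67, HCM1, a forkhead transcription factor of S phase, 0.65 and 0.75, and CSE4, the centromeric histone H3 variant, 0.63 and 0.97. The others were YKR023W (0.64 and 1.05), PAR32 (0.62 and 0.70) and SQS1 (0.62 and 0.70). In RPF the msp1Δ library was the lowest of the 4 for all 10, and in RNA-seq for 6, while the double deletion was the highest of the 4 for 8 in RPF and 9 in RNA-seq. These genes too were chosen by their difference between the double deletion and msp1Δ, which favours both counts.

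A further set was higher in RNA only, picked here after its values were seen. BUD23, which methylates 18S ribosomal RNA, had 902 RNA-seq reads in the double deletion and 167 in msp1Δ, with 180 in pex19Δ and 186 in wild type, and 62 RPF reads in the double deletion and 53 in msp1Δ, with 94 in pex19Δ and 84 in wild type. Its ratios were 2.50 (2.27 to 2.76) and −0.38 (−0.94 to 0.17). JID1, a mitochondrial J-domain protein, had 953 reads in the double deletion and 181 in msp1Δ, with 742 in pex19Δ and 496 in wild type, and its ratios were 2.47 and −1.01. IFM1, the mitochondrial translation initiation factor 2, had 1.27 and −0.15, HOS2, a histone deacetylase, 1.24 and −0.57, and SMX2, a core protein of spliceosomal snRNPs, 1.03 and 0.05. For BUD23 the double deletion stood apart from the other 3 libraries, whereas for JID1 the msp1Δ library was the low one.

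Genes for peroxins, the proteins that build peroxisomes, showed no shared direction. PEX3, the membrane anchor that receives cargo from Pex19, had ratios of 0.25 and −0.59. The matrix import receptor PEX5 had 0.23 and 0.41, and its docking partners PEX13 and PEX14 had 0.59 and 0.13, and 0.11 and 0.19. Of the receptor export machinery, the AAA ATPase PEX6 had −0.11 and −0.18, while PEX15, its tail-anchored membrane anchor and a known Msp1 client when it is misplaced, had −0.22 and 0.36. Of the division and size genes, PEX11 had −0.14 and −0.53 and PEX25 0.12 and −0.48. The transporters ANT1, for adenine nucleotides, and FAT1, for fatty acids, had 0.23 and −0.63, and 0.13 and −0.78. No measured peroxin gene apart from PEX19 passed 1.5-fold in both assays, and many were under the minimum, with 2 of 9 docking and ubiquitin ligase genes and 7 of 13 division and size genes measured. The peroxin genes under the minimum had 1 to 59 RPF reads each in the double deletion and 1 to 32 in msp1Δ. Among them PEX4, the ubiquitin-conjugating enzyme of receptor recycling, had 187 RNA-seq reads in the double deletion and 167 in msp1Δ, and 39 RPF reads in the double deletion and 9 in msp1Δ.

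Peroxisomal enzyme genes were mixed. Of 24 β-oxidation and matrix enzyme genes 18 were measured, of which 12 stood higher by RNA-seq (median 0.07) and 7 by RPF (−0.10). Of all genes, 49.4% stood higher by RNA-seq and 50.1% by RPF. POX1, the acyl-CoA oxidase that opens β-oxidation, had 0.60 and 0.22, and CTA1, the peroxisomal catalase, 0.54 and 0.30. FOX2, the multifunctional enzyme of the middle steps, had 0.34 and −0.30, and POT1, the thiolase of the last step, −0.28 and −0.31. OAF1, a subunit of the activator of these genes on oleate, had −0.02 and 1.03. The 16 genes of the glyoxylate cycle and gluconeogenesis had medians of 0.02 and −0.07, with isocitrate lyase ICL1 at 0.32 and 0.14, and ADY2 was the member past 1.5-fold in both. The retrograde signalling target CIT2, which encodes peroxisomal citrate synthase, had −0.03 and −0.21, and 8 targets of that pathway had medians of −0.01 and −0.18.

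Among mitochondrial gene groups, the respiratory chain, ribosomal protein and tail-anchored protein lists had medians farther from 0 in RPF than in RNA-seq, and the import and chaperone lists had medians near 0 in both. The 43 measured nuclear genes for respiratory chain or ATP synthase subunits had a median of −0.05 in RNA-seq, with 14 higher, and of 0.29 in RPF, with 35 higher. The 68 genes for proteins of the mitochondrial ribosome had medians of 0.12 (55 higher) and 0.23 (52 higher). Of them 45 were above 0 in both, a count with no share of all genes beside it. Of all genes, 49.4% were above 0 and 50.6% below in RNA-seq, and 50.1% were above in RPF. Protein import genes had medians of 0.06 and −0.03, chaperones and proteases 0.09 and −0.08, and TCA cycle genes −0.00 and −0.03. Within the import list the small TOM subunits TOM5 and TOM6 had −0.30 and 0.80, and −0.06 and 0.93, while the receptor TOM70 had 0.04 and −0.48. The 8 genes of the tail-anchored outer membrane list, which also holds OM14 and CBR1, had medians of −0.11 (7 lower) and 0.44 (6 higher). Among them the GTPase GEM1 had −0.14 and 0.88, OM14 −0.15 and 0.36, and CBR1 0.18 and −0.58. These are not the misplaced proteins that Msp1 pulls out. The 9 genes of the mitochondrial import stress and drug resistance list had medians of −0.01 and 0.03, with PDR5 at −0.02 and 0.03. Of the GET pathway, which inserts tail-anchored proteins into the endoplasmic reticulum, GET2 had −0.75 and −0.06 and GET3 0.07 and 0.03.

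Cytosolic ribosomal protein genes were higher in RPF for 134 of 138 (median 0.42), where 50.1% of all genes were above 0, and for 77 in RNA-seq (median 0.02), where 49.4% were. All 10 histone genes were higher in RPF (median 0.37), and translation factor genes had medians of −0.05 and 0.22. Several ribosomal protein and histone genes have near-identical copies, such as RPL35A and RPL35B at 99.2% identity, so single values among them are uncertain. Ergosterol synthesis genes were lower for 20 of 24 by RNA-seq (median −0.15), where 50.6% of all genes were. By RPF 20 were lower (median −0.35), where 49.9% of all genes were, and 19 were lower by both. Phosphomevalonate kinase ERG8 had −0.14 and −0.88 and the HMG-CoA reductase HMG1 −0.11 and −0.85. Iron uptake genes had medians of −0.16 and −0.44 over 8 measured members, with the ferroxidase FET3 at −0.52 and −0.46 and its permease partner FTR1 at −0.38 and −0.98. The unfolded protein response list stood at medians of −0.04 and −0.12, with an RPF median of 0.01 when TMM used all listed genes, and the proteasome list at 0.00 and 0.13.

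**Figure D3:**
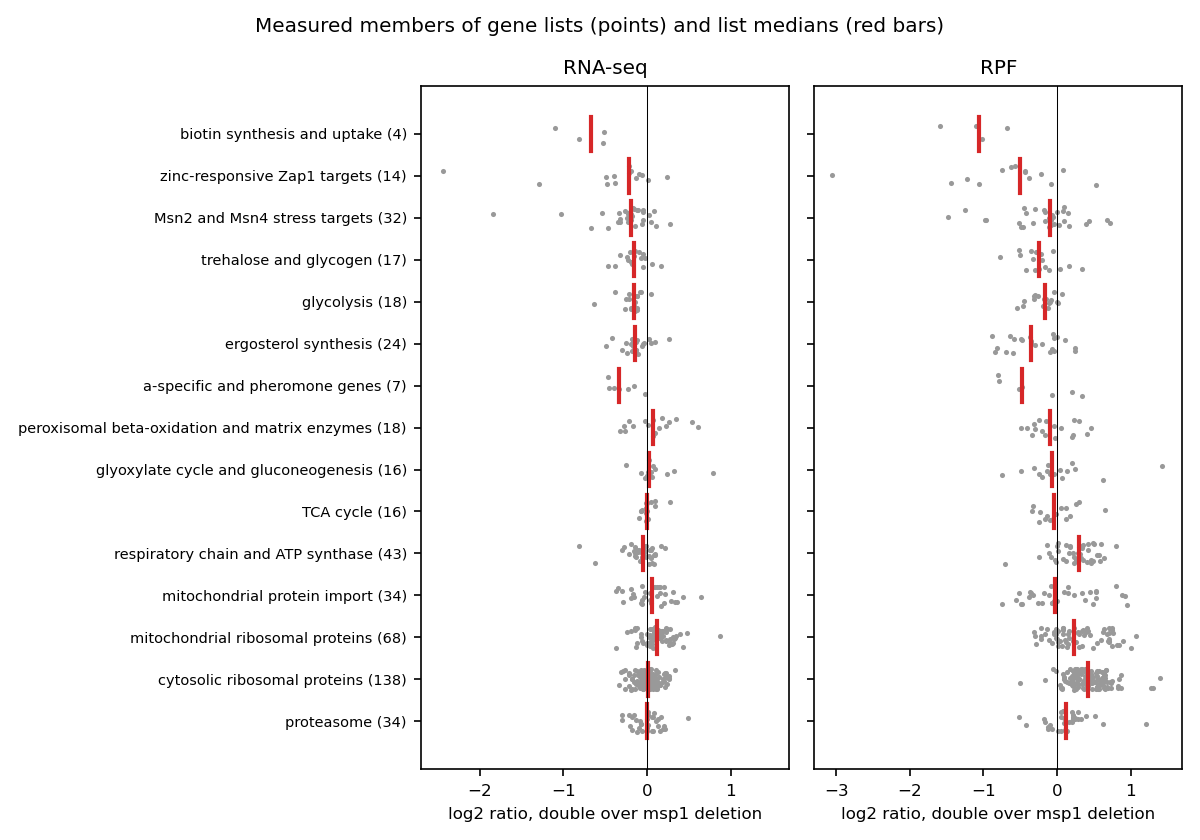
Log2 ratios of the double deletion over msp1Δ for the measured members (grey points, number in parentheses) of 15 gene lists in RNA-seq (left) and RPF (right), with the list median as a red bar. The biotin and zinc lists lie to the left in both panels. The respiratory chain and cytosolic ribosomal lists have medians near 0 in RNA-seq and lie to the right in RPF. The mitochondrial ribosomal list lies to the right in both, with medians of 0.12 and 0.23.

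The RPF ratio varied with coding length. Across 3735 genes the RPF ratio had a Spearman correlation of −0.35 with coding length, against 0.11 for RNA-seq, as a description over genes that share these libraries. The median RPF ratio was 0.48 for 121 genes of at most 300 nt and −0.19 for 378 genes over 3000 nt. The msp1Δ over wild-type RPF ratio ran the other way, with medians of −0.37 and 0.17 for the same groups, while the double deletion over wild type had 0.10 and −0.03. The pex19Δ over wild-type RPF ratio also rose with length, with −0.08 and 0.08. The length trend of the double deletion over msp1Δ thus moved with the msp1Δ RPF library, the one with the fewest reads. Genotype and library cannot be told apart. With the trend of length and GC content removed, the RPF median of cytosolic ribosomal protein genes was 0.12 and that of mitochondrial ribosomal protein genes 0.08. That of the tail-anchored outer membrane list was 0.12, that of histones 0.04 and that of the respiratory chain −0.04. The zinc and ergosterol lists, with median coding lengths of 1299 and 1324.5 nt against 433.5 nt for cytosolic ribosomal proteins, were at −0.53 and −0.38 in RPF after the same step. In RNA-seq the mitochondrial ribosomal protein genes kept a median of 0.14 after trend removal.

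**Figure D4:**
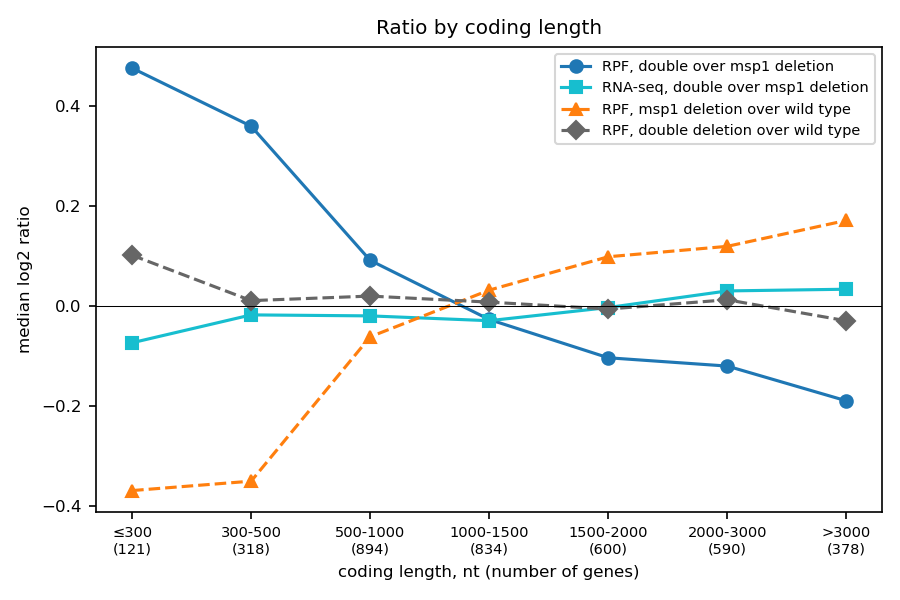
Median log2 ratio (y axis) of genes grouped by coding length in nt (x axis, number of genes in parentheses). The RPF median of the double deletion over msp1Δ falls with length, that of msp1Δ over wild type climbs, and that of the double deletion over wild type stays between −0.03 and 0.10.

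Translational efficiency, the RPF ratio over the RNA-seq ratio, was at least 2-fold higher for 92 genes (2.46%) and lower for 82 (2.19%). Among the 1726 genes with at least 100 reads in each of the 4 libraries compared, it was highest for RPL41B, a very short 60S ribosomal protein (1.32), PIN3, a prion-inducing protein (1.26), and the autophagy protein ATG8 (1.24). It was lowest for the vacuolar transporter BPT1 (−1.23), the ubiquitin ligase UFD4 (−1.21) and MME1, a mitochondrial magnesium exporter (−1.19). RPL41B RPF was 364 CPM in the double deletion and 138 in msp1Δ, with 210 in pex19Δ and 234 in wild type. UFD4 RPF was 85.4 in the double deletion and 204 in msp1Δ, with 120 in pex19Δ and 110 in wild type. For each of the 6 highest and 6 lowest genes the msp1Δ RPF library lay at the far end of the 4, which the choice of genes by a ratio to msp1Δ RPF favours.

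The same deletion was also made with MSP1 present, in pex19Δ against wild type, and that comparison shares no library with the one above. Over 3736 genes without PEX19, the ratios in the absence and in the presence of MSP1 had a Pearson correlation of 0.07 and a Spearman correlation of −0.00 in RNA-seq, and of −0.17 and −0.25 in RPF. These are descriptions over genes of the same libraries. In RPF the 2 ratios had opposite trends with coding length, with Spearman correlations of −0.35 without MSP1 and 0.21 with it. The part of these length trends in the negative RPF correlation was not tested. The 8 genes other than PEX19 that were at least 2-fold lower without MSP1 were all lower with it in both assays, where 25.9% of all genes were. Directions here are counted by sign alone, whatever the size of the ratio. For HEF3 the RPF ratio with MSP1 present was −0.11 (−0.83 to 0.60), from 35 reads in each library, so no RPF difference was resolved. ADH4, SPS100 and ZPS1 were past 1.5-fold in both assays with MSP1 present, as were 0.482% of all genes.

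ADH4 had −3.46 and −5.37 with MSP1 present against −1.29 and −1.44 without it, so its difference was smaller in the msp1Δ background. SSA3 had −0.16 and −0.44 with MSP1 present, and HEF3 had −0.72 and −0.11. Of the 24 genes at least 1.5-fold lower, 12 were lower in both assays with MSP1 present, where 25.9% of all genes were. Another 7 were higher in both, among them CTT1 and HSP26, where 28.1% of all genes were. Of the 10 higher genes, UBC9 and SQS1 had the same direction in both assays and 3 the opposite, beside the same 28.1% and 25.9% of all genes. UBC9 was the one past 1.5-fold, at 1.63 and 0.88. The zinc list had medians of −0.35 and −0.07 with MSP1 present, and the biotin list −0.37 and −0.41. With 1 library on each side these differences between the backgrounds were not tested.

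**Figure D5:**
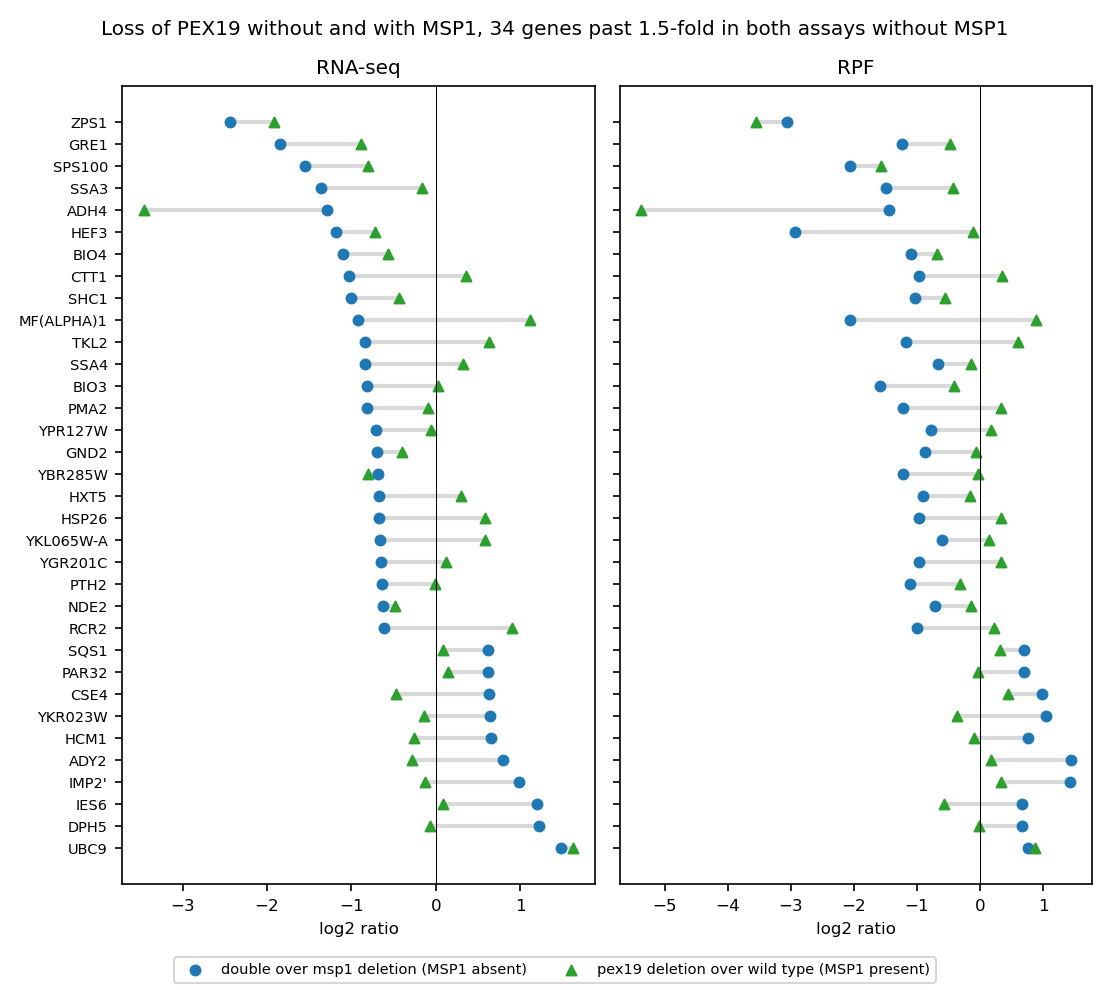
Log2 ratio on loss of PEX19 in cells without MSP1 (blue circles, double deletion over msp1Δ) and with MSP1 (green triangles, pex19Δ over wild type) for the 34 genes other than PEX19 past 1.5-fold in both assays in the first comparison. ZPS1, SPS100, ADH4 and UBC9 lie on the same side of 0 in both, and TKL2 and MF(ALPHA)1 lie on opposite sides.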

How the data were processed

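The authors' deposited read counts per gene, headed as reads in the file headers, were the input of every calculation. The deposited TPM values, the authors' length-scaled values per the file headers, were used as an alternative only. The tools named are STAR 2.5 and cutadapt 1.8 and the build sacCer3 (R64), per the submitters' processing notes. Not given in the sources used here are the counting tool and how strand and reads shared by copies were handled. The lowest count listed is 1, so a gene without reads appears as 1.

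Within an assay, libraries were scaled by TMM (edgeR 4.0.16 in R 4.3.3), with factors from genes averaging at least 50 reads in the assay. To both sides of a log2 ratio 1 read was added, adjusted for library size. The 3737 genes used averaged at least 50 reads over the 4 genotypes in both assays. Intervals are exact (Clopper-Pearson, conditional binomial, 95%), and 3 reads served as the limit for PEX19. With 1 library per genotype and assay no test was run. By the series' design text both libraries of a genotype belong to 1 sample. Ratio calculations were checked on simulated counts.

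The genes named are the deleted genes and the neighbours of PEX19, those past 2-fold in both assays, as many as 12 further ones each way past 1.5-fold, 6 each way by translational efficiency, all measured peroxins, every member of a list with 10 or fewer and the ends of longer lists; further list members and the genes high in RNA only were added with their values seen. The members and lists were chosen with earlier results of these data known. Copies were sought with blastn 2.17.0 (at least 90% identity over 100 nt), and sequences were read from the R64 genome, in which 5994 listed genes were found. Alternatives were library totals, TMM over all listed genes, DESeq2 1.42.0 size factors, minimums of 10, 200 and no reads, pseudocounts of 0.1 and 5, subtraction of a trend on coding length and GC content, and deposited TPM. Some members of the lists are not reported here.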

Additional observations from a re-analysis of the deposited data

Results flagged for a closer look

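For 2 genes loss of PEX19 went opposite ways in the presence and absence of MSP1, past 1.5-fold in both assays each time. TKL2, the minor transketolase, had log2 ratios of −0.84 (RNA-seq) and −1.17 (RPF) for the double deletion over msp1Δ, and of 0.63 and 0.61 in pex19Δ over wild type. MF(ALPHA)1, a precursor of α-factor, had −0.92 and −2.06 in the double deletion over msp1Δ, and 1.12 and 0.89 in pex19Δ over wild type. Each side holds 1 library, so the difference was not tested.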

How the results depend on the processing

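No paired analysis was possible because each genotype has 1 library per assay and no comparison gave a test. DESeq2 size factors, a pseudocount of 0.1 and deposited TPM left the 9 genes past 2-fold lower in both assays as they were. SHC1 dropped out with library totals, a pseudocount of 5 and trend removal, and SHC1 and BIO4 with TMM over all listed genes, which moved the RPF median of all genes to 0.134. At least 2-fold higher in both was IMP2' alone (1 gene) with library totals and with trend removal, and 7 genes with no minimum. At least 2-fold lower in both were 4 genes with a minimum of 200 and 23 with none. At least 1.5-fold in both were 23 higher and 50 lower with a minimum of 10, 1 and 11 with 200, and 51 and 80 with none. In RNA-seq alone 22 were at least 2-fold higher and 34 lower with a minimum of 10, 1 and 5 with 200, and 261 and 192 with none. In RPF the counts were 163 and 166, 3 and 10, and 227 and 319 in that order, and 91 and 37 with TMM over all listed genes. For translational efficiency they were 253 and 219, 8 and 5, 414 and 585, and 145 and 48, with 59 higher after trend removal. Minimums change which genes are counted. Medians changed sign in RPF for peroxin division genes (0.1395, minimum of 200), the respiratory chain (−0.0364) and oxidative stress genes (−0.0051, both after trend removal), unfolded protein response (0.0112) and Msn2 and Msn4 targets (0.0306, both TMM over all listed genes), and in RNA-seq for hexose transporters (−0.2802, minimum of 200). Among genes named by the fixed rules, no ratio past 1.5-fold changed sign in these alternatives. The genes high in RNA only and the further list members added with their values seen were not checked in this way. The RPF depth of msp1Δ limits every RPF ratio.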
